A study of Mus musculus with 24 samples.

Results

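Gene expression after tamoxifen was measured in the gastrocnemius, the large calf muscle, of female mice that carried no Cre recombinase. These flox females were labelled Numb(f/f)/NumbL(f/f), which means floxed alleles of Numb and Numbl, the genes of a pair of endocytic adaptor proteins known as regulators of Notch signalling. They made up 6 of the 24 libraries of the study, chosen as the table of animals without the transgene: 3 tamoxifen libraries and 3 vehicle libraries, compared over all expressed genes. The animals they are set against carried the same floxed alleles. Transgene females, 3 tamoxifen and 3 vehicle libraries, also carried HSA-MCM, MerCreMer, which is Cre recombinase joined to oestrogen receptor domains, driven in muscle fibres by the promoter of human skeletal actin. Flox males, 3 tamoxifen and 3 vehicle libraries, lacked it, although their titles read WT. The tamoxifen libraries of transgene females are titled cKO, for conditional knockout, and the vehicle libraries of transgene females vehicle control. The labels describe the flox females as genotype controls. Age, strain background, tamoxifen dose and timing, and the time of day of collection are details not given in the sources used here. The labels number the libraries but do not say that each is a separate animal, so the p-values below reflect only how far these 6 libraries vary, which may be technical.

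Tamoxifen is a selective oestrogen receptor modulator, an antagonist in some tissues and a partial agonist in others. It is given in MerCreMer models because it frees the fusion protein to enter the nucleus. In muscle, as in most tissues, the circadian clock is a transcriptional loop: BMAL1 (gene Arntl) and CLOCK bind E-box sequences and switch on the Per and Cry repressors, which in turn shut BMAL1 and CLOCK off. Per1 can also be raised quickly by glucocorticoid and cAMP signalling, which places it among the immediate early genes, the first transcriptional response to many stimuli.

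In flox females tamoxifen was followed by higher expression of Per1 and of the clock repressor Ciart, of the clock output gene Usp2 and of the early response transcription factors Fosl2 and Klf6. Xrcc2, a DNA repair gene, and Coq10b and Slc25a33, genes of mitochondrial proteins, were also higher. Smarca1, a chromatin remodeller, and Miga2, a protein of the mitochondrial outer membrane, were among the few genes that were lower. The test (edgeR's quasi-likelihood test, threshold an adjusted p of 0.05) called 19 of 14539 genes, or 0.131% of those tested. Of these 14 rose, or 0.0963% of all genes, and 5 fell, or 0.0344%, and 12 differed at least 2-fold. The tamoxifen and vehicle libraries did not overlap in 14.5% of all genes, 7.3% higher and 7.2% lower, and 8.65% of genes had an unadjusted p under 0.05, 4.37% higher and 4.28% lower. The median log2 change over all genes was 0.00. Levels below are CPM (read counts scaled by TMM to a common library size within the 6 libraries), and changes are log2 changes of tamoxifen over vehicle with their standard error (SE).

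Libraries held 36099031 to 43014516 counts. Mitochondrial transcripts took 4.57% to 5.27% of counts and the most counted gene, the fast myosin gene Myh4, 6.36% to 8.07%. Numb had 18.6, 18.4 and 16.4 CPM in tamoxifen libraries and 23.8, 19.99 and 20.9 CPM in vehicle libraries, a log2 change of -0.28 ± 0.10 (SE; adjusted p = 0.452). Numbl had 3.19, 3.86 and 3.69 CPM in tamoxifen libraries and 2.67, 2.65 and 2.77 CPM in vehicle libraries, a change of 0.41 ± 0.16 (adjusted p = 0.498). Neither floxed gene passed the test in these animals without Cre, though the libraries of both groups did not overlap for either gene. Esr1, the oestrogen receptor gene from which the MerCreMer domains derive, lay at 28.3 to 36.4 CPM in tamoxifen libraries and 25.8 to 32.3 CPM in vehicle libraries. In transgene females, whose counts lie in another table scaled separately, it lay at 402 to 1432 CPM after tamoxifen and 894 to 1177 CPM after vehicle. The low Esr1 level in all 6 flox female libraries goes with their label.

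One library stood apart from the other 5. The first principal component of the 2000 most variable genes held 33.2% of the variance and set tamoxifen library 1 apart, and the second, with 24%, separated tamoxifen from vehicle. Slow fibre genes summed to 1874 CPM in tamoxifen library 1, against 5522 and 6039 CPM in tamoxifen libraries 2 and 3 and 4800, 5242 and 4932 CPM in vehicle libraries. It was the lowest of the 6 libraries for 13 of 15 slow fibre genes and 19 of 22 genes of fatty acid uptake and oxidation, where 22% of all genes were lowest there. It was the highest for 14 of 16 fast fibre genes and 8 of 10 tendon markers, where 21.6% of all genes were highest there. The slow myosin gene Myh7 had 578 CPM in it and 1523 to 1908 CPM in the other 5 libraries. Selected results are therefore also given without this library.

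**Figure D1:**
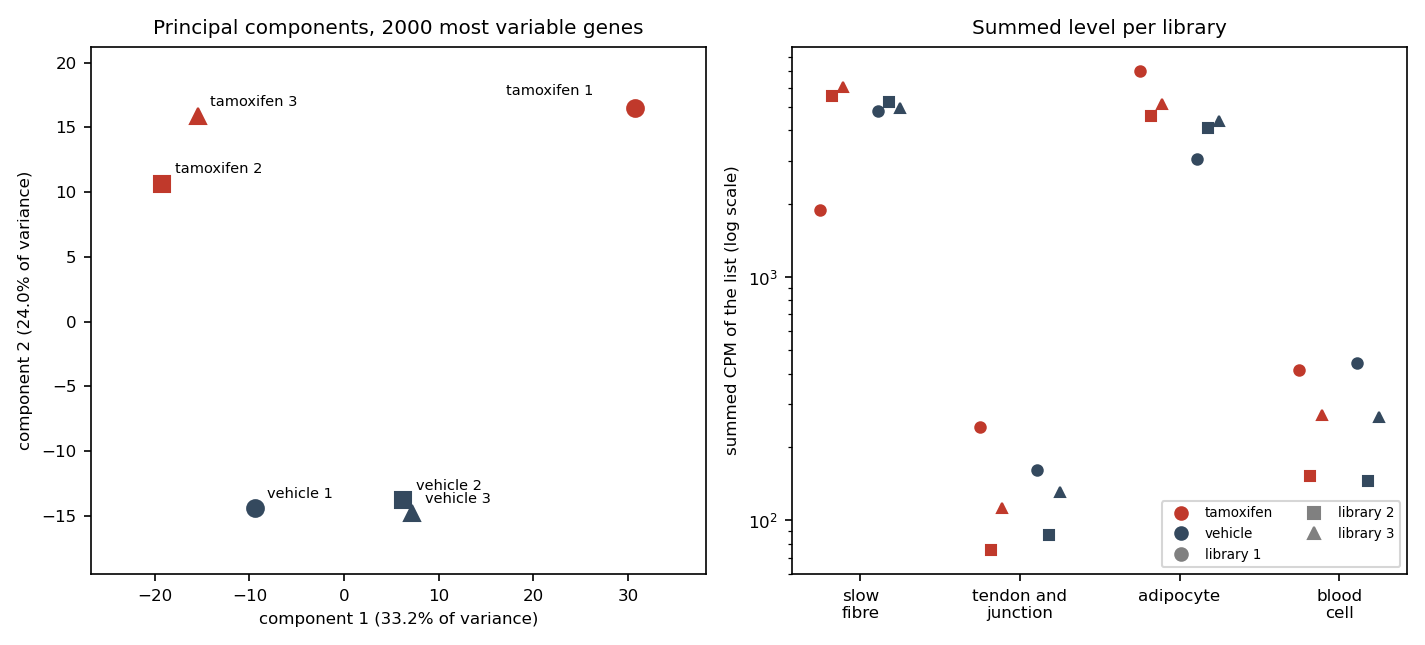
Left, the 6 flox female libraries on the first and second principal components of log2 CPM (share of variance on each axis); right, the summed CPM of 4 marker lists in each library on a log scale, tamoxifen in red left of vehicle in dark blue, with one marker shape per library number. Tamoxifen library 1 lies alone at the right of component 1 and has the lowest slow fibre sum, 1874 CPM, while component 2 has all tamoxifen libraries above all vehicle libraries.

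Per1 (chr11:69095217-69109960, plus strand, GRCm38) was the gene with the smallest p. It had 130, 150 and 168 CPM in tamoxifen libraries and 34.1, 41.0 and 45.9 CPM in vehicle libraries. The lowest tamoxifen library was far above the highest vehicle library, and the log2 change was 1.89 ± 0.13 (SE; adjusted p = 0.00117). Ciart (chr3:95878503-95882251, minus strand), also called Chrono, a repressor of BMAL1 and CLOCK, had 19.7, 15 and 28.1 CPM in tamoxifen libraries and 4.53, 4.01 and 3.66 CPM in vehicle libraries. Its groups did not overlap either, and the change was 2.37 ± 0.24 (adjusted p = 0.0255). Usp2 (chr9:44067021-44095627, plus strand), a deubiquitinase whose transcript cycles with the clock, had 203, 243 and 185 CPM in tamoxifen libraries and 117, 118 and 116 CPM in vehicle libraries. Its vehicle values were tightly grouped and all tamoxifen values lay above them, with a change of 0.85 ± 0.11 (adjusted p = 0.0218). Usp2 overlaps exons of 2 other annotated genes, and whether counting used strand is not given, so its counts are uncertain in that respect.

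The sequences just upstream of Per1, Ciart and Coq10b are shown because the clock activators act through E-boxes. Each window is RefSeq's, on build GRCm38.p6, from 250 bases before to 50 bases after an annotated start, 5′ to 3′ on the gene's strand. Capitals mark the E-box CACGTG, which reads the same on both strands. The Per1 window (its first annotated start, chr11:69098699-69098998, plus strand) has 1 E-box, whose first base lies 166 bases before the start. The Ciart window (chr3:95882179-95882478, minus strand) has 3, at 116, 58 and 44 bases. The window of Coq10b (chr1:55052520-55052819, plus strand), described below, has 1 at 78 bases. The windows of the clock genes Usp2, Dbp and Nr1d1, not shown, have 0, as does that of the second annotated Per1 start.
Per1: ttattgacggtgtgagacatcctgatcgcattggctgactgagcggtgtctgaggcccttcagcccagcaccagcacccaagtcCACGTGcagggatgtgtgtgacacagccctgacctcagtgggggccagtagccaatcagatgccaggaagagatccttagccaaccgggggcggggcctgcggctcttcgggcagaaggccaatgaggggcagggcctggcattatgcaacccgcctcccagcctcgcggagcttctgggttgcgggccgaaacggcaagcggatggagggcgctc
Ciart: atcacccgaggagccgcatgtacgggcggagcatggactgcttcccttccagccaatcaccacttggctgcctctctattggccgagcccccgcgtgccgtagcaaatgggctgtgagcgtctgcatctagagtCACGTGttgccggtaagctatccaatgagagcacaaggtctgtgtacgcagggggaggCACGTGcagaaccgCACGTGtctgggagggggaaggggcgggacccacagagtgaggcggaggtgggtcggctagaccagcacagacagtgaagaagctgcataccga
Coq10b: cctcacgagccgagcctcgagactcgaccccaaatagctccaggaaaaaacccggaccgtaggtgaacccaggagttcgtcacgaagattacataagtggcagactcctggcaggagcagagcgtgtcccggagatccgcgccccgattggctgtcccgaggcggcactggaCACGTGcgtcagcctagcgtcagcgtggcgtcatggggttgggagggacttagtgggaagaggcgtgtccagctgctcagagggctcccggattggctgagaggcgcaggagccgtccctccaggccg
Of the 14 genes that rose, 12 had a promoter in the RefSeq table, and 5 of these held a CACGTG: Per1, Ciart, Coq10b, Slc25a33 (8 bases before the start) and Klf6 (43 bases). Of the 5 genes that fell, 4 had one and 0 held the motif. Among all RefSeq windows 7.15% of 32851 promoters held it, and 11.6% of the 10558 tested genes with a promoter. The cAMP response element TGACGTCA was in 0 of the 12, in 1.79% of all promoters and in 3.45% of the tested genes. Of the 4 genes that fell it was in 1, Sphk2. The D-box TTATGTAA was in 2 of the 12, Coq10b and Xlr3b, in 0.938% of all promoters and in 0.635% of the tested genes. The palindromic oestrogen response element was in 0 of the 12, in 0.07% of all promoters and in 0.00947% of the tested genes. All motifs were searched on both strands. These matches describe letters in a short window and show neither binding nor a cause.

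The other genes of the clock loop were of mixed direction. Of 14 loop genes 1 was called, Per1, and 10 had a positive change, with a median of 0.11. Of 12 output genes 2 were called, Ciart and Usp2, and the median was 0.47. Libraries did not overlap for 5 loop genes higher and 2 lower, and for 6 output genes higher and 1 lower. Over all genes 7.3% were higher and 7.2% lower without overlap, and 0.131% were called. Per2, the partner repressor of Per1, had 12.7, 16.7 and 9.60 CPM in tamoxifen libraries and 3.70, 5.75 and 4.95 CPM in vehicle libraries, a change of 1.44 ± 0.23 (adjusted p = 0.106). Per3 had 46.1, 50.9 and 52.7 CPM in tamoxifen libraries and 26.5, 34.6 and 23.8 CPM in vehicle libraries, a change of 0.82 ± 0.13 (adjusted p = 0.0776). Both Period genes kept their tamoxifen libraries above all vehicle libraries without passing the threshold. Dbp, a transcription factor driven by E-boxes, had 144, 149 and 161 CPM in tamoxifen libraries and 77.4, 79.9 and 45.6 CPM in vehicle libraries (1.16 ± 0.21, adjusted p = 0.166), and its exons overlap those of Sphk2. On the activator side, Arntl had 14.6, 9.47 and 13.6 CPM in tamoxifen libraries and 25.4, 18.9 and 28.4 CPM in vehicle libraries, a change of -0.95 ± 0.20 (adjusted p = 0.266). Npas2, which can stand in for CLOCK, had a change of -0.84 ± 0.25 (adjusted p = 0.373) and Clock one of -0.22 ± 0.12 (adjusted p = 0.633). For Arntl and Npas2 all tamoxifen libraries lay below all vehicle libraries, opposite to the Period genes. Cry2 had a change of 0.68 ± 0.16 (adjusted p = 0.312) and Cry1 one of -0.36 ± 0.14 (adjusted p = 0.503). Nr1d1, which encodes the repressor REV-ERB alpha, had 240, 130 and 257 CPM in tamoxifen libraries and 203, 202 and 184 CPM in vehicle libraries, so its groups overlapped.

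**Figure D2:**
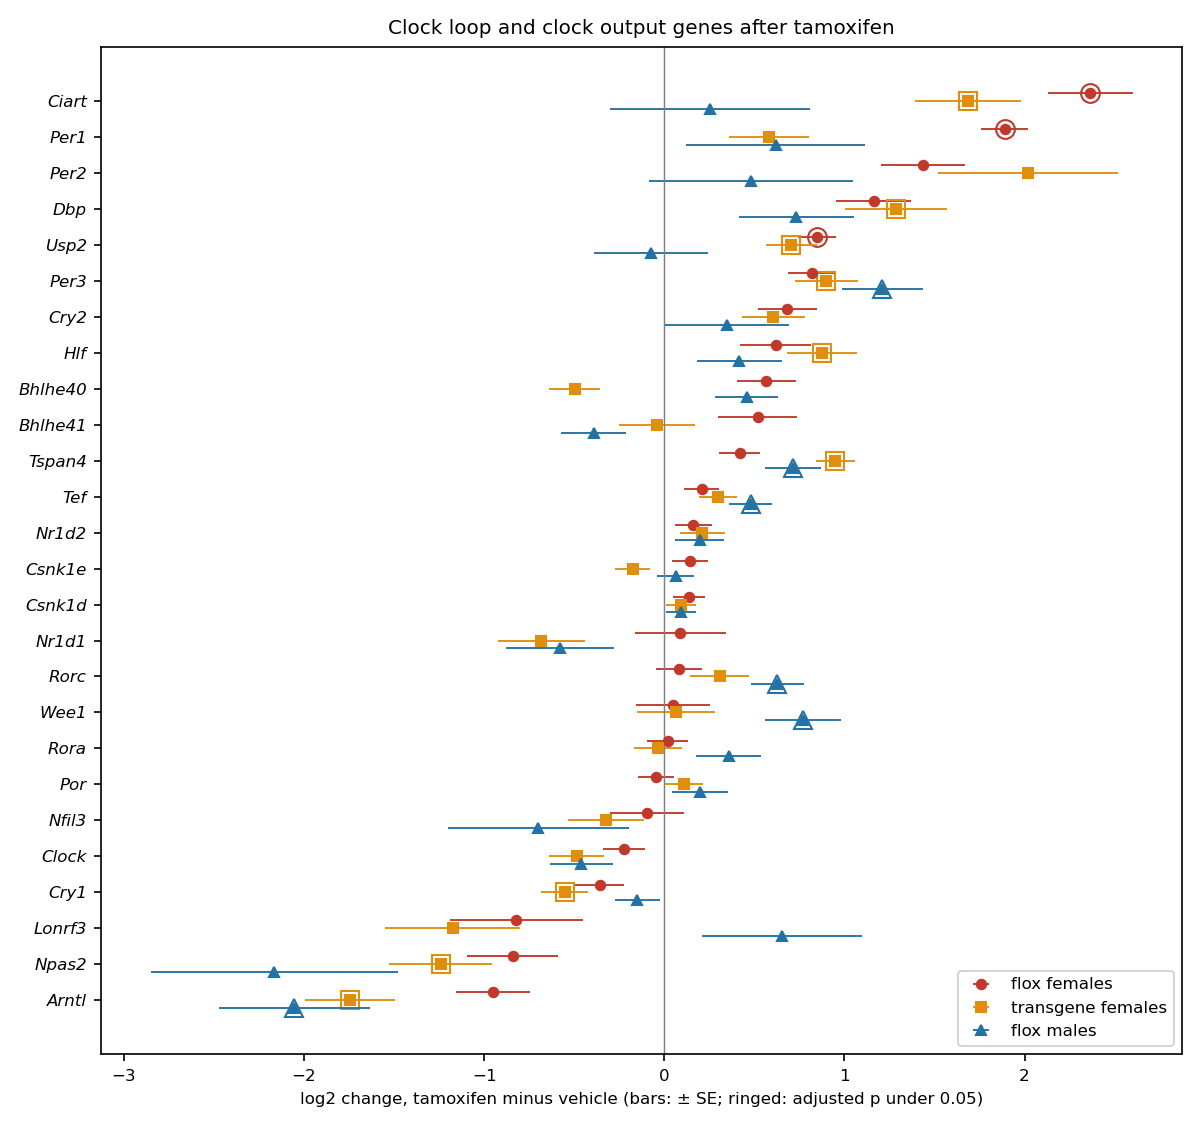
Log2 change after tamoxifen of 26 clock loop and clock output genes, with ± SE, in flox females (red circles), transgene females (orange squares) and flox males (blue triangles); ringed points have an adjusted p under 0.05. In flox females Ciart (2.37), Per1 (1.89) and Usp2 (0.85) are ringed, and Arntl (-0.95) and Npas2 (-0.84) lie at the low end in all 3 comparisons.

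Most immediate early genes had positive changes. Of 22 tested, 2 rose past the threshold, beside 0.0963% of all genes, and 0 fell. A positive change was seen in 20, and the median was 0.65, beside 0.00 over all genes. Libraries did not overlap for 6 of the 22, all higher, beside 7.3% of all genes. The median of this list was -0.27 in flox males and 0.13 in transgene females. Fosl2 (chr5:32135801-32157842, plus strand), a member of the AP-1 transcription factors, had 26.2, 31.6 and 28.5 CPM in tamoxifen libraries and 17.7, 15.2 and 16.8 CPM in vehicle libraries, a change of 0.80 ± 0.10 (adjusted p = 0.0218). Klf6 (chr13:5861482-5870394, plus strand), a zinc finger transcription factor, had 37.0, 44.9 and 47.0 CPM in tamoxifen libraries and 21.5, 26.5 and 26.6 CPM in vehicle libraries, a change of 0.79 ± 0.12 (adjusted p = 0.0436). Neither gene's groups overlapped. Nr4a1, an orphan nuclear receptor raised by muscle activity and cAMP, had 418, 449 and 441 CPM in tamoxifen libraries and 185, 186 and 282 CPM in vehicle libraries (1.002 ± 0.16, adjusted p = 0.0896). Its relative Nr4a2 had 2.83, 6.78 and 4.54 CPM in tamoxifen libraries and 1.01, 1.31 and 1.59 CPM in vehicle libraries (1.85 ± 0.33, adjusted p = 0.132). Both receptors had all tamoxifen libraries above vehicle and missed the threshold. Fos varied most between replicates, with 5.71, 10.6 and 33.2 CPM in tamoxifen libraries and 4.82, 11.9 and 3.75 CPM in vehicle libraries, and its groups overlapped. Egr1 and Jun had changes of 0.04 ± 0.83 and 0.07 ± 0.12.

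With tamoxifen library 1 left out, 87 of 14890 genes passed (0.584%): 61 were higher, 26 were lower, and all 19 above were among them. Immediate early genes called higher were then 5, of a list of 22 tested with all libraries, and cAMP-responsive genes 4, of a list of 14. Nr4a2 and Fosb count in both lists. Sik1, a kinase induced by cAMP, had 38.4 and 42.0 CPM in tamoxifen libraries 2 and 3, against 17.6 CPM in library 1 and 15.2, 13.7 and 17.0 CPM in vehicle libraries. Its change was 1.39 ± 0.10 (adjusted p = 0.000322) without library 1 and 1.10 ± 0.35 (adjusted p = 0.506) with it. Nr4a2 changed by 2.11 ± 0.24 (adjusted p = 0.00559) without that library, Fosb by 1.95 ± 0.34 (adjusted p = 0.0352) and Maff by 1.14 ± 0.19 (adjusted p = 0.0309). The gluconeogenic enzyme gene Pck1 changed by 1.79 ± 0.25 (adjusted p = 0.0179) and Irs2, of insulin signalling, by 1.22 ± 0.13 (adjusted p = 0.0112). Pck1, Irs2 and the early gene Csrnp1 (1.38 ± 0.16, adjusted p = 0.00622) were picked after their values were seen. The low slow fibre sum and high tendon sum of library 1 go with its lower Sik1, Maff and Fosb, and their part in the result was not tested.

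Of 14 cAMP and CREB responsive genes only Per1 was called with all 6 libraries, and the median was 0.28. It was -0.53 in flox males and 0.07 in transgene females. Of 19 glucocorticoid-responsive genes Per1 was again the only call, with a median of 0.27 (0.41 in flox males and 0.16 in transgene females). Libraries of this list did not overlap for 7 genes higher and 1 lower, beside 7.3% and 7.2% of all genes. Sgk1, a kinase induced by glucocorticoids, had 185, 133 and 138 CPM in tamoxifen libraries and 106, 77.8 and 91.7 CPM in vehicle libraries (0.73 ± 0.16, adjusted p = 0.214). Tsc22d3, which encodes the glucocorticoid-induced leucine zipper protein, had 235, 174 and 160 CPM in tamoxifen libraries and 96.8, 90.4 and 146 CPM in vehicle libraries (0.77 ± 0.23, adjusted p = 0.428). Both had separate groups below the threshold. Fkbp5, a chaperone gene and one of the most used markers of glucocorticoid action, pointed the other way at -0.90 ± 0.44 (adjusted p = 0.661), with 30.9, 25.4 and 17.9 CPM in tamoxifen libraries and 65.0, 24 and 49.3 CPM in vehicle libraries. Its groups overlapped.

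Oestrogen receptors and oestrogen-responsive genes held 0 calls of 12 tested, with a median of -0.04. Esr1 changed by 0.16 ± 0.11 (adjusted p = 0.759). Greb1, a classical oestrogen target, had 0.522, 0.793 and 0.639 CPM in tamoxifen libraries and 0.673, 1.23 and 1.68 CPM in vehicle libraries (-0.87 ± 0.35, adjusted p = 0.528). A further 6 genes of the list, Pgr and Esr2 among them, were too low to test, so a response of these genes was not detectable at this depth.

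Coq10b, a coenzyme Q binding protein needed for respiration (chr1:55052770-55072702, plus strand), had 23.2, 33.8 and 26.9 CPM in tamoxifen libraries and 8.26, 11.4 and 9.79 CPM in vehicle libraries. The groups were well apart, with a change of 1.51 ± 0.16 (adjusted p = 0.0218), and the gene overlaps exons of E330011M16Rik. Its close relative Coq10a had 254, 317 and 312 CPM in tamoxifen libraries and 272, 281 and 290 CPM in vehicle libraries, which overlapped. Coq10b was the only call among 13 coenzyme Q genes, whose median was 0.03. Slc25a33, a mitochondrial carrier of pyrimidine nucleotides, had 19, 19.9 and 18.9 CPM in tamoxifen libraries and 9.14, 11.3 and 9.86 CPM in vehicle libraries (0.93 ± 0.10, adjusted p = 0.0112). Miga2, a protein of the mitochondrial outer membrane that takes part in fusion, was lower, with 23.3, 24.9 and 21 CPM in tamoxifen libraries and 34.6, 37.0 and 35.8 CPM in vehicle libraries (-0.64 ± 0.09, adjusted p = 0.0320). Both genes had separate groups and overlap exons of predicted genes. Of 40 nuclear genes of oxidative phosphorylation 0 were called, though 38 had a positive change, beside 50.5% of all genes. Separate groups were seen for 6 of them, all higher, beside 7.3% of all genes. The median of the 40 was 0.10 and their changes ran from -0.05 to 0.25. The 10 mitochondrially encoded genes tested had a median of 0.02 and 0 calls.

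Xrcc2, a gene of homologous recombination (chr5:25689812-25705825, minus strand), had 11.9, 12 and 13.0 CPM in tamoxifen libraries and 4.97, 5.45 and 5.05 CPM in vehicle libraries. Replicates were close within each group, and the change was 1.25 ± 0.11 (adjusted p = 0.00275). It was the only call among 18 genes of the p53 pathway and DNA repair, whose median was 0.07; Mdm2, a p53 target, had a change of -0.08 ± 0.08 and Cdkn1a one of 0.27 ± 0.31. Smarca1, the SNF2L ATPase of ISWI chromatin remodellers (chrX:47809368-47892974, minus strand), had 2.58, 2.74 and 2.91 CPM in tamoxifen libraries and 5.72, 5.93 and 5.77 CPM in vehicle libraries. This was a change of -1.08 ± 0.14 (adjusted p = 0.0218), with groups far apart. Among 18 remodeller genes it was the only call, and 4 had separate groups lower, beside 7.2% of all genes. Smarca5, the other ISWI ATPase, was at -0.23 ± 0.08 (adjusted p = 0.447) with 22.9, 23.3 and 22.2 CPM in tamoxifen libraries and 27.9, 26.2 and 25.8 CPM in vehicle libraries. Bptf, an ISWI partner, was at -0.28 ± 0.08 (adjusted p = 0.368), and Cecr2, another partner, at 0.73 ± 0.16 (adjusted p = 0.214).

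The remaining calls belong to no list. The long non-coding RNA Gm48584 (chr12:15976264-15980488, minus strand) had 8.29, 7.11 and 8.40 CPM in tamoxifen libraries and 2.28, 2.03 and 2.89 CPM in vehicle libraries, a change of 1.72 ± 0.16 (adjusted p = 0.00459). It was the gene that passed under all 14 alternative settings. Stum, a membrane protein named after a Drosophila gene of mechanical sensing, changed by 1.52 ± 0.20, Ccdc125, a coiled-coil protein, by 1.89 ± 0.26 and Fam174b by 1.39 ± 0.21. Calml4, a calmodulin-like protein, changed by 1.88 ± 0.29. Xlr3b, an X-linked gene with near-identical copies between which reads may be split, had 2.61, 0.947 and 1.77 CPM in tamoxifen libraries and 0.129, 0.241 and 0.240 CPM in vehicle libraries (3.10 ± 0.44, adjusted p = 0.0405). Its groups were apart, but relative to their mean its tamoxifen libraries spread most among the 19 called genes. The 10 macrophage and leukocyte markers held 0 calls, and their sums of 41.4, 49.8 and 47.9 CPM in tamoxifen libraries and 60.2, 46.9 and 55.0 CPM in vehicle libraries overlapped. Yet 0 of the 10 had a positive change, beside 50.5% of all genes, and their median was -0.27. Separate groups were seen for 0 of them. The median of these markers was -0.33 in flox males and -0.52 in transgene females. The lean was not theirs alone: 1 of 10 fibroblast, 1 of 8 Schwann cell and 2 of 9 endothelial markers had a positive change in flox females. Against these stood 10 of 11 adipocyte and 7 of 10 tendon markers. Separate groups were seen for 2 fibroblast markers, both lower, beside 7.2% of all genes. In bulk tissue fewer cells of a type and less RNA per cell cannot be told apart. Ttll4, a tubulin glutamylase, changed by -0.55 ± 0.08 and Sphk2, a sphingosine kinase, by -0.61 ± 0.09 (adjusted p = 0.0455 for both). Sphk2 shares exonic sequence with Dbp, whose counts were higher after tamoxifen.

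**Figure D3:**
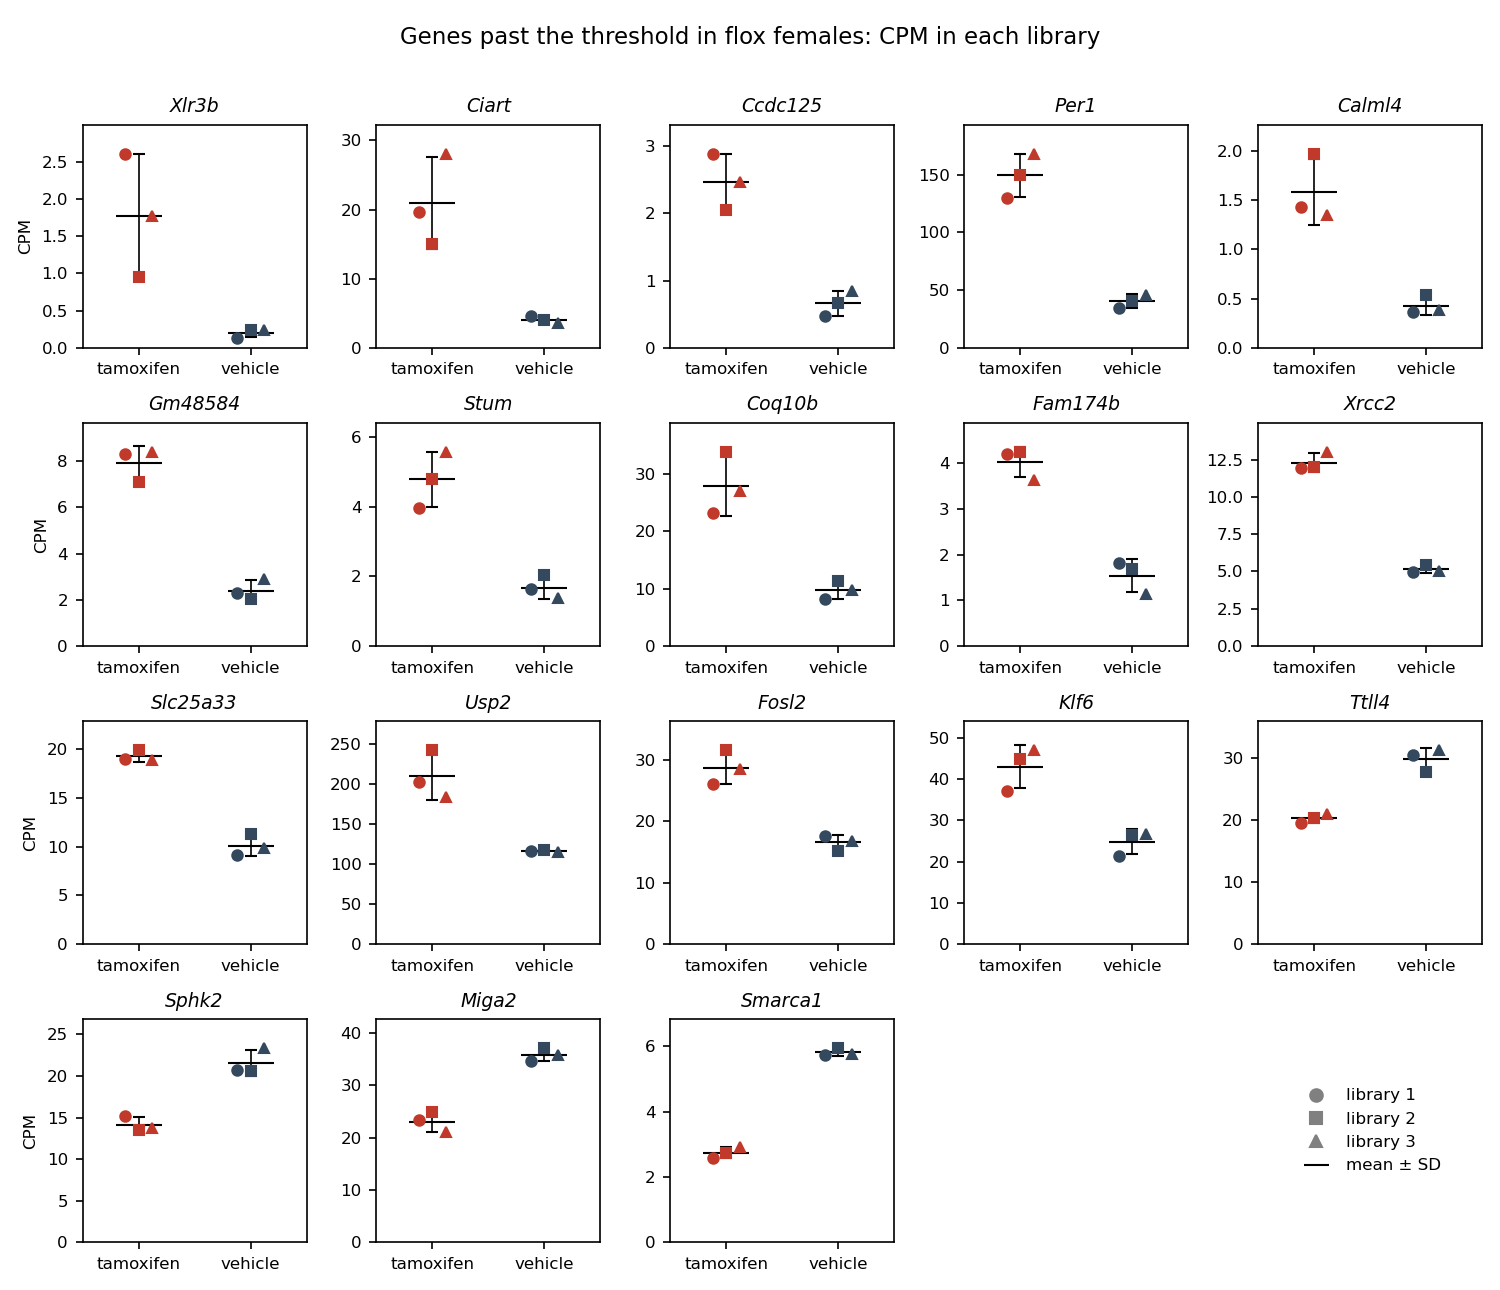
CPM of 18 of the 19 called genes in each flox female library, tamoxifen (red) left of vehicle (dark blue), ordered by log2 change, with mean ± SD (n = 3) and one marker shape per library number. The 3 tamoxifen and 3 vehicle libraries do not overlap for any of the 18 genes, from Xlr3b (log2 change 3.10) to Smarca1 (-1.08).

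The 12 named genes with the smallest p above the threshold had adjusted p-values of 0.0522 to 0.0896, and their groups did not overlap. Odc1, the first enzyme of polyamine synthesis, had 108, 71.6 and 114 CPM in tamoxifen libraries and 33.1, 44.3 and 37.2 CPM in vehicle libraries (1.36 ± 0.20, adjusted p = 0.0896). The other polyamine genes lay between -0.25 and 0.38, and 0 of 12 were called. Xdh, xanthine dehydrogenase of purine breakdown, had 17.9, 18.2 and 18 CPM in tamoxifen libraries and 30.4, 24.2 and 29.7 CPM in vehicle libraries (-0.64 ± 0.10, adjusted p = 0.0522). Dkk3, a secreted glycoprotein of the Dickkopf family, had 1.43, 1.56 and 2.06 CPM in tamoxifen libraries and 10.1, 8.63 and 4.5 CPM in vehicle libraries (-2.19 ± 0.32, adjusted p = 0.0776). The others were Zfp469, Plekha6, Efhc2, Irak2, Per3, Tob1, Atoh8 and Cyp4f39, with changes of 0.46 to 1.53, and Dapk2, with a change of -0.65. Without tamoxifen library 1, Xdh, Dapk2, Irak2, Tob1, Atoh8, Zfp469, Plekha6 and Efhc2 passed, and Odc1, Dkk3, Per3 and Cyp4f39 did not.

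Some genes with a large response in the other groups did not pass here. Of 22 genes listed because they changed after tamoxifen elsewhere in the study, 0 were called in flox females. Flrt1, a cell adhesion protein, had 41.2, 8.11 and 50.9 CPM in tamoxifen libraries and 0.958, 2.11 and 1.42 CPM in vehicle libraries (4.48 ± 0.92, adjusted p = 0.368). The groups did not overlap, but tamoxifen library 2 was well below the other two. In flox males Flrt1 had 220.2, 224 and 217 CPM after tamoxifen and 1.76, 2.42 and 1.96 CPM after vehicle, and the difference between the sexes did not pass (adjusted p = 0.400). Ostn, which encodes the muscle hormone musclin, had 35.1, 18.8 and 24.5 CPM in tamoxifen libraries and 176, 103 and 126 CPM in vehicle libraries, again apart (-2.37 ± 0.32, adjusted p = 0.133). Rhpn2 had 32.5, 17.8 and 23.5 CPM in tamoxifen libraries and 11.1, 10.8 and 8.63 CPM in vehicle libraries (1.28 ± 0.23, adjusted p = 0.164). Without tamoxifen library 1 Rhpn2 passed, at 1.02 ± 0.15 (adjusted p = 0.0184), the only gene of this list to do so. The list was drawn from results of these data and is no independent evidence of a direction.

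Stress and muscle programmes held 0 calls with all 6 libraries. Of 20 genes of the unfolded protein response 8 had separate groups lower and 1 higher, beside 7.2% and 7.3% of all genes. The median of this list was -0.14. Hyou1, an endoplasmic reticulum chaperone, had 26.2, 26.2 and 25.1 CPM in tamoxifen libraries and 30.4, 33.3 and 35.7 CPM in vehicle libraries (-0.36 ± 0.08, adjusted p = 0.229). The chaperones Canx and Pdia6 were both at -0.19 ± 0.08. Of 19 heat shock genes 1 had separate groups, beside 14.5% of all genes. It was Hsph1, at -0.58 ± 0.15 (adjusted p = 0.340). Slow fibre genes had a median of -0.08, fast fibre genes 0.08, denervation and atrophy genes 0.07, collagens and matrix 0.02, glycolysis and glycogen 0.13, cholesterol synthesis 0.05, interferon response -0.14 and Notch pathway genes -0.02. Fatty acid genes had a median of -0.09 and PGC-1 coactivators with oestrogen-related receptors 0.01. Without tamoxifen library 1 the slow fibre median was 0.30 with 2 genes called higher. The 11 lists of cell type markers held 0 calls with all 6 libraries. Without tamoxifen library 1 the satellite cell marker Myod1 passed at -0.84 ± 0.15 (adjusted p = 0.0401). The muscle fibre marker Mb then passed at 0.80 ± 0.11 (adjusted p = 0.0131). The tendon median went from 0.28 with that library to -0.51 without it, and the blood cell median from 0.26 to -0.33. Muscle fibre markers dominated, at 149195 to 188653 summed CPM, against at most 779 CPM for fibroblast markers and 397 CPM for endothelial markers. The adipocyte sum of 3037 to 7020 CPM rests on Car3, which muscle fibres also express, at 2616 to 6560 CPM, with Adipoq at 1.64 to 7.46 CPM. Ucp1, the brown fat uncoupling protein, had 2.44, 2.40 and 2.48 CPM in tamoxifen libraries and 0.0777, 0.214 and 0.890 CPM in vehicle libraries (2.60 ± 0.64, adjusted p = 0.368).

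**Figure D4:**
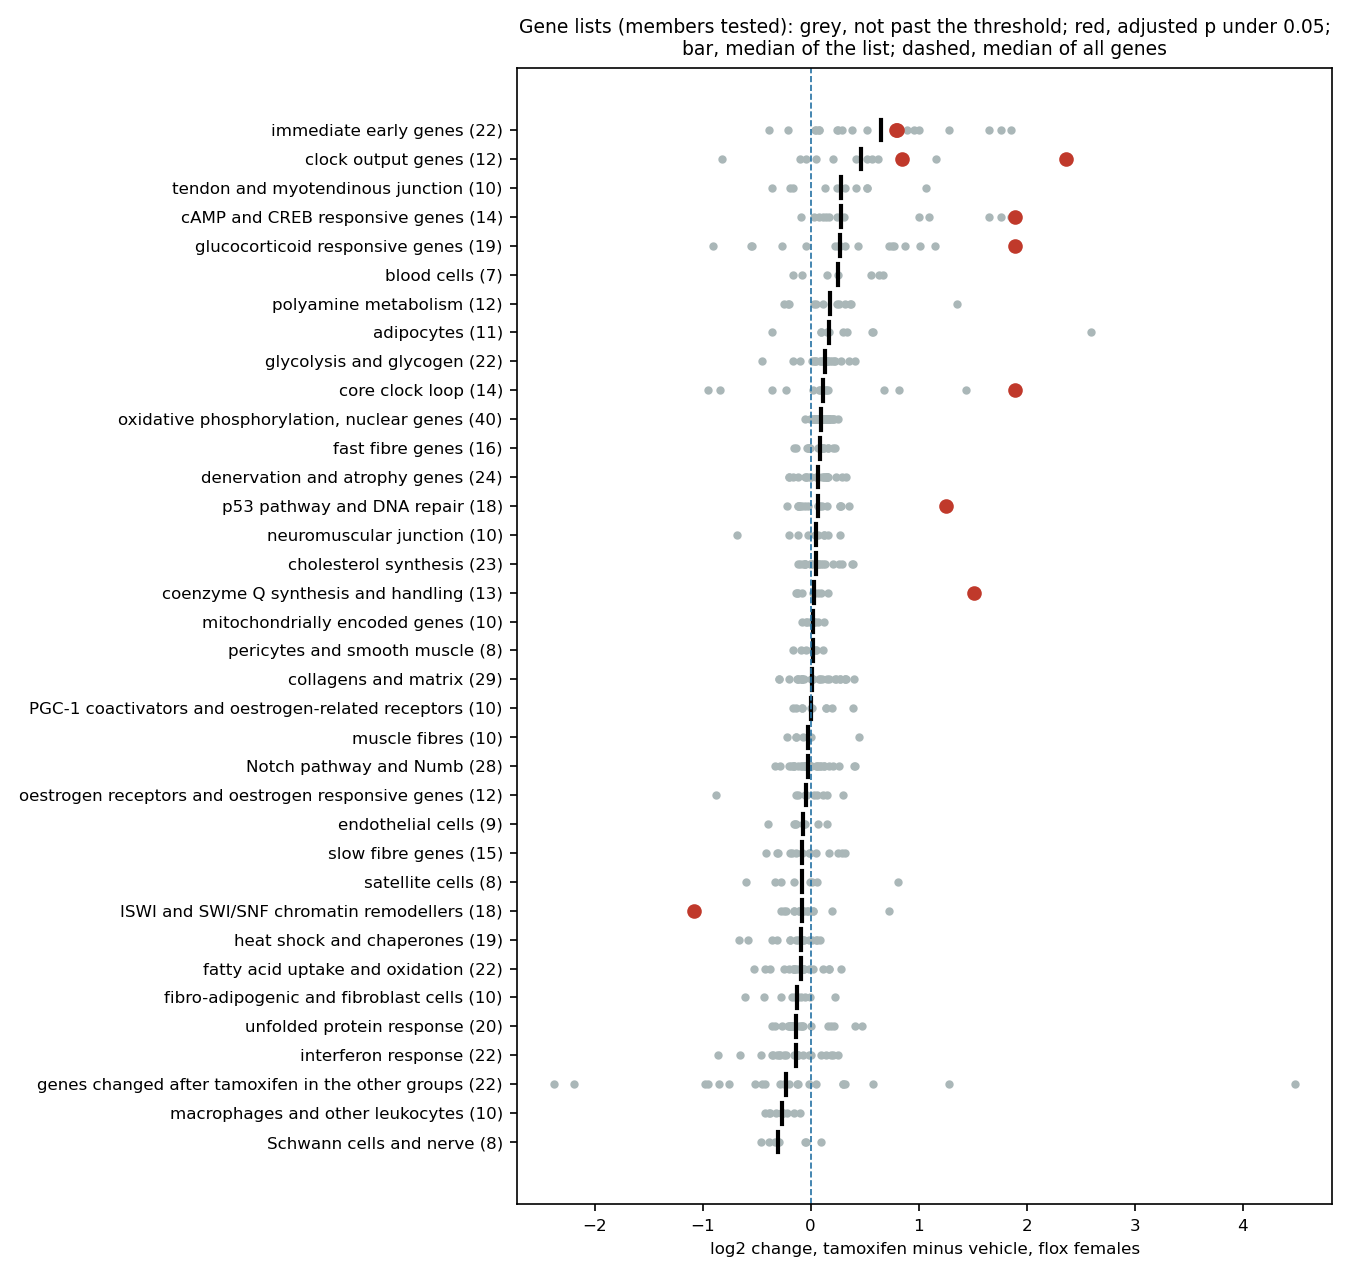
Log2 change after tamoxifen in flox females of each tested member of 36 gene lists (rows, with the number tested), ordered by median; red points passed the threshold, grey points did not, black bars are list medians and the dashed line is the median of all genes, 0.00. Immediate early genes (median 0.65) and clock output genes (0.47) stand at the top, and most other lists centre near 0.

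The same drug was given to flox males, which also lacked Cre, and no library is shared between these comparisons. Of the 19 genes called in flox females 16 had the same sign in flox males and 11 passed there in the same direction, where 5.62% of 16194 genes were called (2.72% higher, 2.9% lower). In transgene females 18 had the same sign and 11 passed, where 2.75% of 15182 genes were called (1.21% higher, 1.54% lower). These values come from fits with the flox females, which share their estimate of spread. Fitted on their own 6 libraries, 8 of the 19 passed in flox males, beside 6.15% of 14907 genes. In transgene females 4 passed in such a fit, beside 1.32% of 14211 genes. The 6 genes that passed in both were Xrcc2, Stum, Ccdc125, Fam174b, Ttll4 and Sphk2. Xrcc2 changed by 1.33 ± 0.14 (adjusted p = 6.13e-05) in flox males and 0.87 ± 0.17 (adjusted p = 0.0165) in transgene females. Stum changed by 3.06 ± 0.34 in flox males and 2.33 ± 0.34 in transgene females. Per1, Fosl2 and Smarca1 passed in neither.

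For several clock and early genes the male values turned on 1 library. Of the 14 genes that rose in flox females 6 had their highest flox male level in vehicle library 3: Per1, Ciart, Usp2, Coq10b, Slc25a33 and Fosl2. Per1 had 115, 114 and 94.5 CPM in flox male tamoxifen libraries and 28.6, 45.0 and 137 CPM in flox male vehicle libraries. Coq10b had 30.02, 23.6 and 19 CPM in flox male tamoxifen libraries and 15.4, 17.1 and 36.3 CPM in flox male vehicle libraries. In both genes vehicle library 3 lay above all tamoxifen libraries and the other vehicle libraries lay below them. Vehicle library 3 was singled out by its high values of these same genes. Leaving it out raises their changes by construction, so the p-values without it are no independent evidence. Without it Per1 changed by 1.55 ± 0.21 in flox males (adjusted p = 0.00273), against 0.62 ± 0.50 (adjusted p = 0.543) with it. Usp2 changed by 0.49 ± 0.10 (adjusted p = 0.0135) without it, against -0.07 ± 0.32. Ciart (0.998 ± 0.48), Coq10b (0.57 ± 0.21) and Slc25a33 (0.36 ± 0.16) did not pass without it, and Fosl2 was at -0.03 ± 0.10. Without that library 11 of the 19 passed in flox males, beside 5.09% of all genes. They were not the same 11: Per1 and Usp2 were added, while Ttll4 (adjusted p = 0.0856) and Xlr3b (adjusted p = 0.0968) no longer passed. In transgene females Per1 had 165, 105 and 144 CPM in tamoxifen libraries and 66.1, 90.8 and 119 CPM in vehicle libraries, so the groups overlapped.

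The difference between the female and male responses was tested directly as an interaction. It passed for 43 of 16194 genes (0.266%), 18 with the higher response in flox females (0.111%) and 25 with the lower (0.154%). Of these 43, 41 passed in flox males and 0 in flox females, where 1 was not tested, and 24 had opposite signs in the sexes. None of the 19 genes called in flox females was among them: the difference was 1.27 ± 0.70 for Per1 (adjusted p = 0.526), 2.11 ± 0.79 for Ciart (adjusted p = 0.341) and 1.49 ± 0.51 for Fosl2 (adjusted p = 0.306). Without flox male vehicle library 3 the difference of Fosl2 passed, at 0.82 ± 0.14 (adjusted p = 0.0129). That library was singled out by its high values of genes such as Fosl2, so this p-value is no independent evidence. Slc7a2, an arginine transporter, had 80.2, 72.6 and 63.9 CPM in flox female tamoxifen libraries and 84.2, 71.4 and 93.4 CPM in flox female vehicle libraries. In flox males it had 166, 142 and 225 CPM after tamoxifen and 42.3, 35.6 and 42.0 CPM after vehicle. The flox female groups overlapped while the male groups were apart, a difference of -2.36 ± 0.23 (adjusted p = 0.000518). Amd1, a decarboxylase of polyamine synthesis, had 60.2, 67.8 and 46.3 CPM in flox female tamoxifen libraries and 70.4, 69.5 and 66.9 CPM in flox female vehicle libraries. In flox males it had 346, 309 and 274 CPM after tamoxifen and 1644, 1381 and 1455 CPM after vehicle, and the difference was 2.02 ± 0.18 (adjusted p = 9.92e-05). Smox, spermine oxidase of the same pathway, had a difference of 2.71 ± 0.31 (adjusted p = 0.00699), and Gadd45a, a stress and growth arrest gene, one of -1.90 ± 0.21 (adjusted p = 0.000611). The sexes lie in different tables, so sex and table cannot be told apart, in the levels or in the difference of responses. Flox male libraries held 21516819 to 29982077 counts, of which mitochondrial transcripts took 9.5% to 11.3%.

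**Figure D5:**
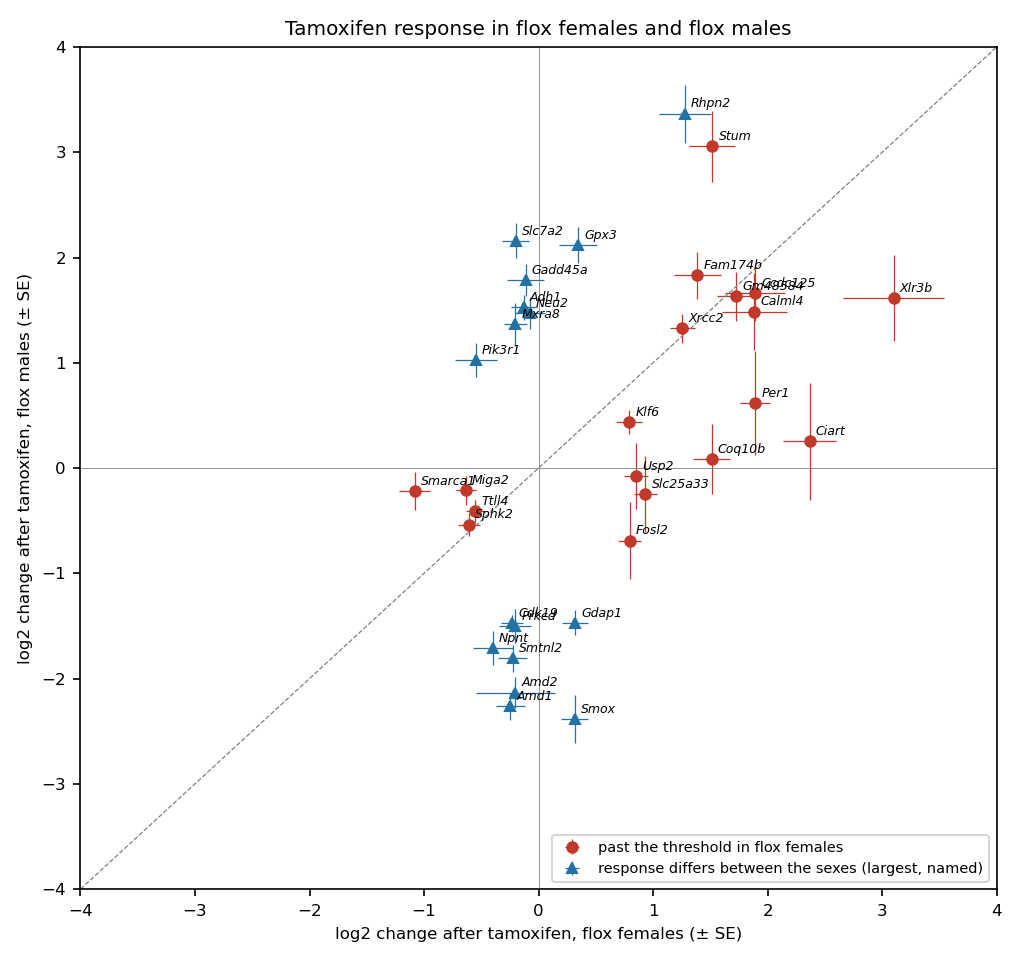
Log2 change after tamoxifen in flox females (horizontal axis) and flox males (vertical axis), with ± SE, for 18 of the 19 genes called in flox females (red circles) and 16 genes whose response differed between the sexes (blue triangles); the dashed line marks equal change. The sex-different genes lie between -0.55 and 0.35 in flox females except Rhpn2 (1.28), while Xrcc2 and Ccdc125 lie close to the dashed line.

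The difference in response between flox females and transgene females passed for 0 of 15182 genes in edgeR (0%). Transgene females carried Cre and their tamoxifen libraries are titled cKO, so the difference covers the transgene together with the knockout. DESeq2 called 45 and limma-voom 0, and 1145 genes had an unadjusted p under 0.05 in edgeR. Carns1, carnosine synthase of muscle, had 66.4, 58.5 and 63.5 CPM in flox female tamoxifen libraries and 47.9, 54.4 and 47.1 CPM in flox female vehicle libraries. In transgene females it had 37.3, 32.7 and 43.9 CPM after tamoxifen and 51.8, 51.5 and 54.1 CPM after vehicle. The groups were apart in opposite directions, with a difference of 0.80 ± 0.14 (adjusted p = 0.292). For Sec14l5 the difference was 0.88 ± 0.16 (adjusted p = 0.292). Per1 differed by 1.30 ± 0.32 (adjusted p = 0.354). Transgene, knockout and table cannot be told apart, in the levels or in the difference of responses. Mitochondrial transcripts took 6.28% to 7.83% of counts in transgene females. On simulated counts this test recovered 41.6% of genes whose response differed 2-fold, so a difference of that size could be missed.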

How the data were processed

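RNA-seq of gastrocnemius was analysed in 6 flox female libraries, with 6 flox male and 6 transgene female libraries for comparison. The authors deposited raw read counts, as whole numbers, for each Ensembl ID. Per the submitters' processing notes the authors used STAR, featureCounts and limma with builds GRCm38 and mm10, with no versions given. Library kit, strand setting, multi-mapping and annotation release are details not given in the sources used here. Of 54752 IDs, 54723 had a symbol in the gene name tables, and coordinates are from GENCODE M21 (GRCm38).

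Tests used edgeR 4.0.16 under R 4.3.3, with TMM scaling, filterByExpr (minimum count 10, minimum total 15), robust dispersions, quasi-likelihood F-test, Benjamini-Hochberg adjustment over all genes tested, threshold 0.05. The SE is the log2 change divided by the square root of F. Flox females were fitted on their 6 libraries, and the interactions on 12 libraries. In each of the 6 pairs of flox female replicates the libraries differed beyond sampling noise (chi-square per degree of freedom 17.6 to 81.6). On simulated data the flox female test recovered 27.0% of 1.5-fold, 62.9% of 2-fold and 91.0% of 4-fold changes. Of its 134 calls there 12 were false, a larger share than the threshold of 0.05 aims at. The same held for the sex difference, with 9 false of 90 calls, and the transgene difference, with 11 of 93. Alternatives used DESeq2 1.42.0, limma 3.58.1, other scaling and filters, left-out libraries, a replicate block and other sets of libraries.

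Named genes are all calls if at most 30, the next 12 by p with a gene symbol that is no clone name, Numb, Numbl and Esr1, every member of the clock, immediate early, glucocorticoid and other-group lists and up to 4 members by p of each other list (36 lists: 25 pathways, 11 cell types), and up to 8 interaction genes per sign, or the 3 smallest p. The members and lists were chosen with earlier results of these data known. Mdm2, Coq10a and Adipoq were picked for description after their values were seen. Overlapping genes may share reads, since the strand setting is not known. Of the 19 calls, 1 is not reported by name here.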

Additional observations from a re-analysis of the deposited data

Results flagged for a closer look

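The response to tamoxifen differed between flox females and flox males by the test of the difference itself (edgeR interaction) for 43 genes, and the 16 named here are given as log2 differences, female minus male response. The female response was the lower one for Slc7a2 (-2.36), Rhpn2 (-2.09), Gadd45a (-1.90), Gpx3 (-1.77), Adh1 (-1.66), Pik3r1 (-1.58), Mxra8 (-1.57) and Neu2 (-1.55). It was the higher one for Smox (2.71), Amd1 (2.02), Amd2 (1.93), Gdap1 (1.79), Smtnl2 (1.58), Npnt (1.31), Prkcd (1.30) and Cdk19 (1.24). Over 18 alternatives, Rhpn2 and Mxra8 missed the threshold in 10 each, Npnt and Prkcd in 8 each and Pik3r1 in 1, and the other 11 passed in all. Rhpn2 missed it with RLE scaling, and Npnt and Prkcd with limma-voom. Gpx3 encodes a secreted glutathione peroxidase, Adh1 an alcohol dehydrogenase and Pik3r1 the regulatory subunit of PI3 kinase. Amd1 and Amd2 are close copies between which reads may be split.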

How the results depend on the processing

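The 19 calls in flox females were 19 with RLE scaling, all 19 shared, and 19 with a stricter filter, 18 shared. With no filter on low counts the counts were 329 in flox females, 757 for the sex difference, 1838 in flox males and 20 for the transgene difference. DESeq2 called 145, 268 for the sex difference, 45 for the transgene difference and 779 in transgene females. In flox females limma-voom called 10, non-robust dispersions 10 and a fit of all 24 libraries 4. RLE scaling gave 1 call for the transgene difference. Fits chosen after seeing the data, on all 12 males and on the 6 transgene females, called 452 in flox males and 187 in transgene females. The fits of 12 males and of 24 libraries hold the transgene males, whose vehicle libraries are titled vehicle control but have tamoxifen in the treatment label; they were grouped by title. Leaving out each library in turn gave 3 to 87 calls in flox females: 3, 9 and 8 without vehicle 1, 2 and 3, and 87 and 7 without tamoxifen 1 and 3. It gave 22 to 136 for the sex difference (29 and 26 without female vehicle 1 and 3, 136 and 28 without female tamoxifen 1 and 3, 22 and 71 without male vehicle 1 and 2, 25 and 28 without male tamoxifen 1 and 3). It gave 0 to 2 for the transgene difference. It gave 339 to 1214 in flox males (411 without male vehicle 1, and 598, 577 and 339 without male tamoxifen 1, 2 and 3). It gave 97 to 455 in transgene females (112 and 163 without their vehicle 1 and 2, 97 and 276 without their tamoxifen 1 and 3). The cause was not tested. Same-numbered libraries did not deviate together (r = -0.20, -0.03 and -0.10). With 3 libraries a group these values cannot show whether equal numbers share a litter or day. A replicate block gave 15 calls, 8 of them among the 19. None of the 19 calls or the 16 named sex differences changed sign in these alternatives, but 35 of 225 other listed genes in flox females (Nr1d1, 0.09, was at -0.09 without tamoxifen 3) and 15 of 36 list medians (slow fibre genes, -0.08, at 0.30 without tamoxifen 1) did. In flox males 16 of the 19 called genes had the flox female sign with all libraries and 18 without vehicle 3. Usp2 was among those that changed sign there. Gm48584 passed in every alternative run; Per1 and Xrcc2 failed in 1 each, the fit of all 24 libraries. With 3 libraries a group, changes under 2-fold were often not detectable.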
